A study of Mus musculus with 12 samples.

Results

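Adipocytes made from 3T3-L1 cells were compared with mouse fat tissue that the labels call eWAT, short for epididymal white adipose tissue. The arrays were chosen by title, 3 of 3T3-L1 adipocytes and 3 of eWAT, and make up 6 of the 12 expression arrays of the series. 3T3-L1 is an immortal mouse fibroblast line whose cells fill with fat after hormonal induction, so the culture arrays come from 1 line. No label states how the culture was run or on which day it was harvested. The tissue came from healthy wild-type mice, with no strain, age or sex on the labels, and the design text calls the arrays of each group biological triplicates. No group carries a stated genetic change. The other 6 arrays, 3 of adipocytes made from primary mouse embryonic fibroblasts (PMEF) and 3 of adipocytes made from mouse embryonic stem (ES) cells, served to show where 3T3-L1 cells also differed from other fat cells grown in a dish.

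White fat cells store triglyceride in a large droplet, release it as fatty acids under adrenergic signals, and secrete hormones such as leptin and adiponectin. In the animal they sit in a matrix of collagens and proteoglycans among blood vessels, macrophages and other immune cells, nerves and fibroblast-like progenitors. Whole tissue was measured here, and in such bulk samples fewer cells of a type and less RNA per cell cannot be told apart.

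Values are deposited log2 intensities, 1 per gene for 19938 genes. A gene was called when its Benjamini-Hochberg adjusted p from limma was under 0.05 over all genes, and rose or fell means called higher or lower in 3T3-L1 adipocytes than in eWAT. Differences are on the log2 scale with their moderated standard error, n = 3 arrays per group. This error rests on a spread pooled over all 12 arrays, so it can understate that of the tissue alone. The lowest 25% of genes by mean over the 12 arrays lay below 4.92, and a level under that line is called dim. No detection calls were used, so a difference that starts or ends at a dim level is rough in size.

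Of all genes, 53.3% were called, 30.8% higher and 22.5% lower in 3T3-L1 adipocytes, and the arrays of both groups did not overlap for 59.1%. A member of a gene list passing the test is therefore common in itself. The split of the calls depended on the scale. Of the called genes 57.8% were higher on the deposited values, 77.1% with arrays centred on their medians and 13.1% with arrays centred on 6 reference genes, which moved the median of all genes by 0.21 and -0.53. Of those 6 reference genes, 5 were themselves called higher in 3T3-L1 on the deposited values and 0 lower, with a median of 0.53. Centring on them takes their mean rise as no change. Directions of small differences are given with that in view. At least 2-fold changes numbered 1207 up and 1692 down on the deposited values (6.05% and 8.49% of genes), but 1947 up and 1360 down with arrays centred on their medians, so that the lead of the falls turned, and 384 up and 3058 down on the reference genes. On the deposited values at least 8-fold changes numbered 55 up and 353 down, and at least 32-fold changes 4 up and 68 down.

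**Figure D1:**
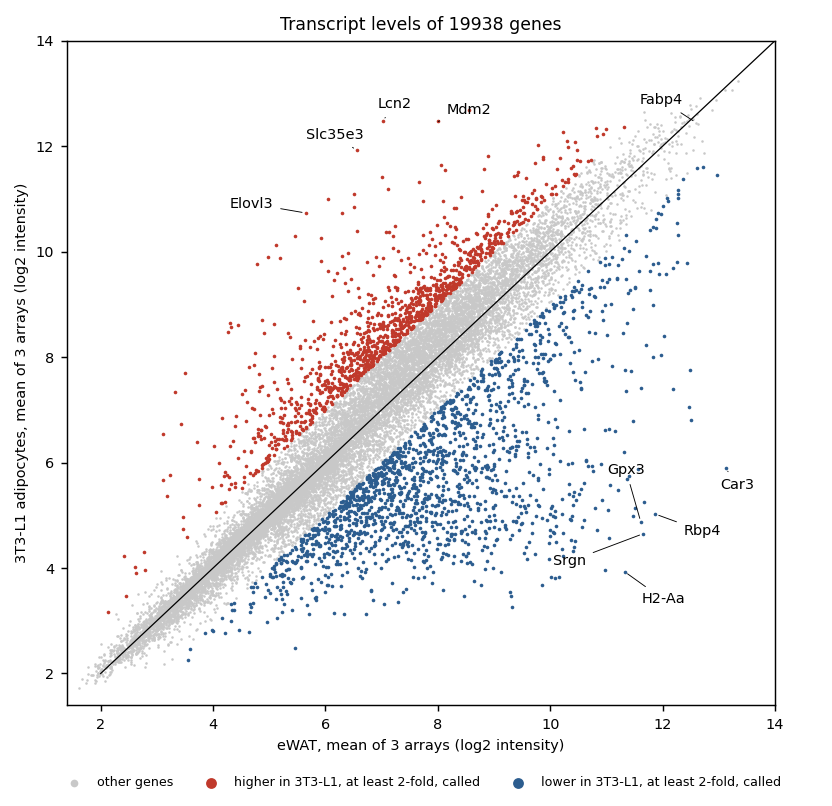
Mean log2 intensity of each of 19938 genes in the 3 eWAT arrays (x axis) and the 3 arrays of 3T3-L1 adipocytes (y axis), with equal levels on the diagonal. Coloured points are the 1207 genes called and at least 2-fold higher in 3T3-L1 and the 1692 called and at least 2-fold lower, and the lower cloud reaches farther from the diagonal.

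The largest rises were of secreted proteins, enzymes and transporters. Lcn2, which encodes the siderophore-binding protein lipocalin 2, read 12.51, 12.47 and 12.45 in the 3T3-L1 arrays and 6.30, 7.64 and 7.12 in eWAT. The tissue arrays were spread but all lay far below the culture, and the gene rose by 5.46 ± 0.24, or 43.9-fold (adjusted p = 2.63e-10). Car6, a secreted carbonic anhydrase, read 9.67, 9.77 and 9.83 against 4.78, 4.65 and 4.93 and rose by 4.97 ± 0.13. Prg4, which encodes the joint lubricant proteoglycan 4, rose by 4.95 ± 0.12, and Mmp11, a matrix metalloproteinase, by 4.44 ± 0.089.

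Elovl3, a fatty acid elongase, read 10.82, 10.76 and 10.63 in 3T3-L1 arrays and 6.60, 5.32 and 5.03 in eWAT, where array 1 stood above the other two. It rose by 5.09 ± 0.28, and it differed from the mean of PMEF and ES adipocytes by 0.08 ± 0.25 (adjusted p = 0.826). Olr1, a receptor for oxidised LDL, read 9.93, 10.01 and 9.77 against 4.20, 5.54 and 5.18, with tissue array 1 the lowest, and rose by 4.93 ± 0.24. The carbonyl reductase gene Cbr3 rose by 4.70 ± 0.15 and the short-chain dehydrogenase gene Dhrs9, whose product acts on retinol, by 4.84 ± 0.093. Arrays of the 2 groups that do not overlap were a condition for naming these 8 genes.

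**Figure D2:**
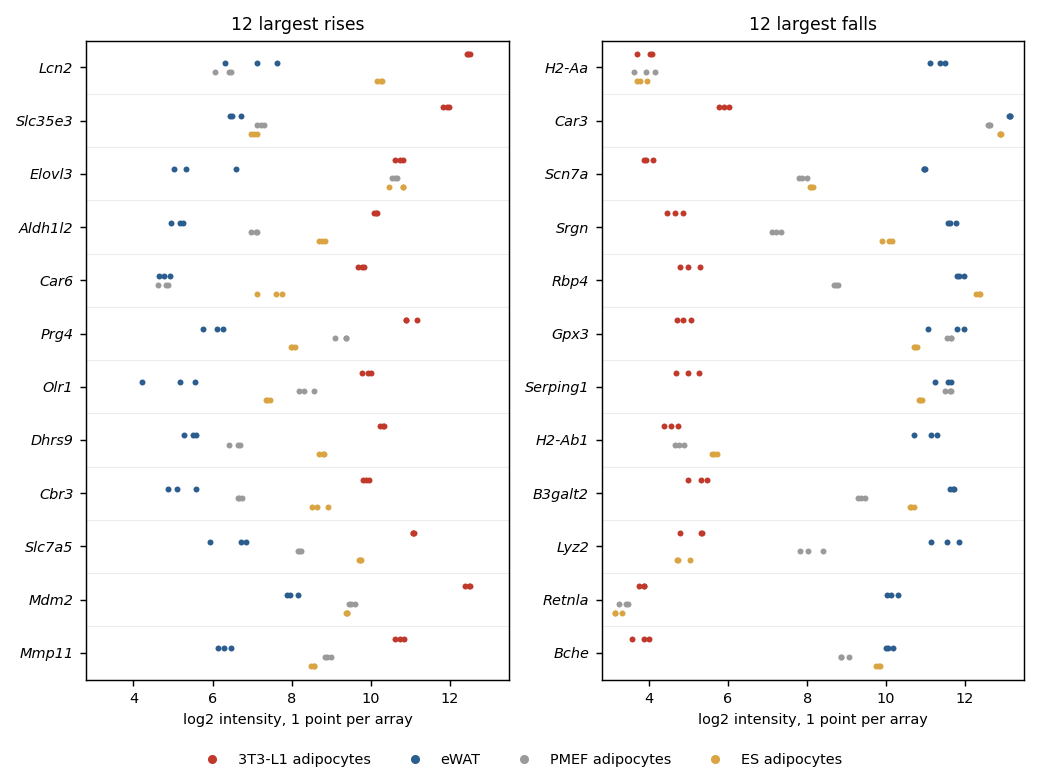
Log2 intensity of the 12 genes with the largest rise (left) and the 12 with the largest fall (right) in 3T3-L1 adipocytes against eWAT, 1 point per array and 3 arrays in each of the 4 groups. Only genes whose 3T3-L1 and eWAT arrays do not overlap were eligible, so those points do not mix in any row. The PMEF and ES points lie near 3T3-L1 for H2-Aa and Retnla and nearer to eWAT for Car3 and Slc35e3.

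Mdm2 and Slc35e3, both among the largest rises, are neighbours on chromosome 10. Mdm2, which encodes the ubiquitin ligase that restrains p53, read 12.49, 12.51 and 12.40 in 3T3-L1 arrays and 7.88, 8.17 and 7.97 in eWAT and rose by 4.46 ± 0.079, or 22-fold. Slc35e3, of a family of nucleotide sugar transporters, read 11.94, 11.99 and 11.84 against 6.73, 6.48 and 6.44 and rose by 5.37 ± 0.088, or 41.4-fold. On the other side of Mdm2 lies Cpm, the carboxypeptidase M gene, which read 7.73, 8.15 and 7.53 against 6.22, 5.68 and 5.74 and rose by 1.92 ± 0.16. The arrays of the 2 groups did not overlap for Cpm, and for Mdm2 and Slc35e3 this was a condition of their choice.

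This stretch was singled out after its values were seen. Cpm, Mdm2 and Slc35e3 were higher in 3T3-L1 than in PMEF adipocytes too, by 3.33, 2.95 and 4.71, and higher than in ES adipocytes by 2.87, 3.07 and 4.87. The next measured genes outward in RefSeq order differed less. Cpsf6, a subunit of a cleavage factor, was at 0.14 ± 0.076 (adjusted p = 0.137), and the nucleoporin gene Nup107 rose by 0.54 ± 0.079, a call lost with arrays centred on reference genes. DNA copy number was not measured.

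**Figure D3:**
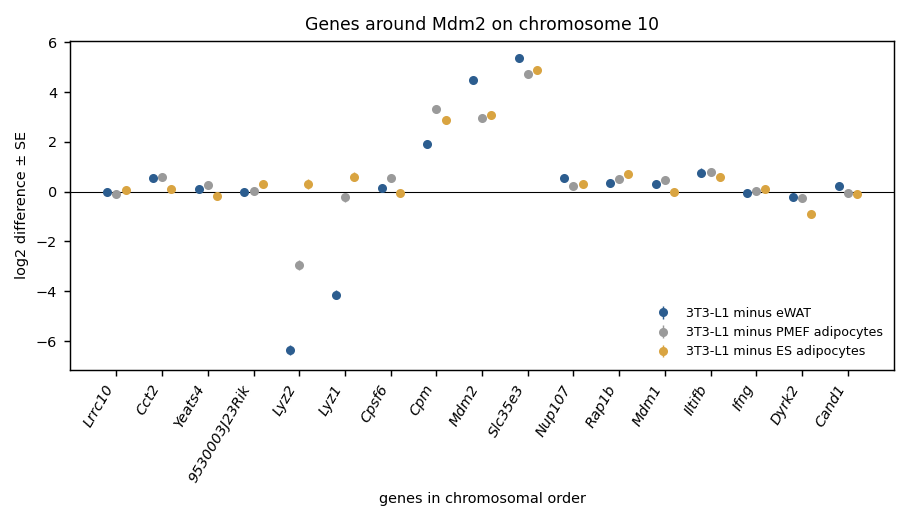
Log2 difference of 3T3-L1 adipocytes from each of the other 3 groups, with its moderated standard error (often smaller than the point), for Mdm2 and the 8 measured genes on each side of it in RefSeq order. Cpm, Mdm2 and Slc35e3 lie above 0 against all 3 groups, by 1.92 to 5.37, and the lysozyme genes Lyz2 and Lyz1 farther out lie far below 0 against eWAT.

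The p53 list, written to hold p53 targets and Trp53, the gene of p53 itself, moved both ways. Of 20 measured, Mdm2 among them, 11 rose and 5 fell, with a median of 0.29, which turned to -0.23 (6 higher, 11 lower) with arrays centred on reference genes. Plk2, a kinase of centriole duplication, rose by 1.83 ± 0.094, while Phlda3, which restrains Akt, fell by 2.37 ± 0.11 and the death receptor gene Fas fell by 1.72 ± 0.11. Against the mean of PMEF and ES adipocytes, 2 genes of the list were higher in 3T3-L1, Mdm2 and Plk2, and 15 lower, where 48.6% of all genes were called, 26.4% higher and 22.1% lower. Cdkn2a, the tumour suppressor locus upstream of p53, read 8.39, 8.32 and 8.48 against 5.89, 5.68 and 6.14 and rose by 2.49 ± 0.12.

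Genes of the amino acid response and of one-carbon metabolism were higher almost throughout. When amino acids run short or proteins misfold, cells make more of the transcription factor ATF4, which together with C/EBP proteins switches on amino acid transporters, synthetic enzymes and stress regulators. Of 33 measured genes 29 rose, 3 fell and 1 did not pass, with a median of 1.98 against 0.046 over all genes. Against the mean of PMEF and ES adipocytes 27 were higher and 3 lower.

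Several of their promoters hold the letters of the element that C/EBP and ATF proteins share. The 250 bases before each RefSeq gene start were searched on both strands for TGATGNAA, a motif added after the expression values were seen, and 7 of the 29 list genes with a promoter held it (24.1%), against 3.14% of 15562 genes. A match describes the letters and is no sign of binding. The windows of 4 genes of the list that rose, from RefSeq GRCm38.p6, run 5′ to 3′ along the gene's strand with each match in capitals, as those letters or their reverse complement.
Asns (chr6:7693210-7693272, minus strand): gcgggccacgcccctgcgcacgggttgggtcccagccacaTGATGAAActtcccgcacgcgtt
Atf3 (chr1:191183396-191183483, minus strand): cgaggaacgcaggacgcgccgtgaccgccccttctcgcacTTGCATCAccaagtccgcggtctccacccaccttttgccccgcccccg
Chac1 (chr2:119351009-119351096, plus strand): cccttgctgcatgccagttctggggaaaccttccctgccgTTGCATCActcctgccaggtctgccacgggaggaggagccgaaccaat
Slc7a11 (chr3:50443614-50443719, minus strand): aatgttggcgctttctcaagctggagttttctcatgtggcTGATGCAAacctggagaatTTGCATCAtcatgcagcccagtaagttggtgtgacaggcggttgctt
The match began 23 bases before the start in Asns, 110 in Atf3 and 193 in Chac1, and Slc7a11 held 2 matches, the farther 66 bases before its start.

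Among the regulators, Atf4 itself read 9.85, 9.89 and 9.91 in 3T3-L1 arrays and 7.41, 7.48 and 7.53 in eWAT and rose by 2.41 ± 0.077. Atf3, a repressor induced by ATF4, read 11.46, 11.34 and 11.45 against 6.72, 7.33 and 6.99 and rose by 4.40 ± 0.12. PMEF adipocytes lay at 6.49 to 6.63 and ES adipocytes at 7.63 to 7.70 for Atf3, so the 3T3-L1 arrays stood above all others. Ddit3, which encodes the C/EBP inhibitor CHOP, rose by 4.09 ± 0.076, and Trib3, a pseudokinase that binds Akt, by 3.89 ± 0.13.

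Transporters and enzymes of amino acids were higher as well. Slc7a5, a carrier of large neutral amino acids, read 11.06, 11.08 and 11.11 against 5.93, 6.72 and 6.85 and rose by 4.59 ± 0.17. The cystine importer Slc7a11 read 8.36, 8.45 and 8.62 against 4.24, 4.33 and 4.21, dim in every tissue array, and rose by 4.21 ± 0.10. Asns, which makes asparagine, was bright in tissue at 10.37, 10.26 and 10.25 and brighter in culture at 12.12, 12.07 and 12.09, and rose by 1.80 ± 0.062. Chac1, which degrades glutathione, rose by 3.83 ± 0.11, and the hormone gene Fgf21 by 1.98 ± 0.15.

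Folate enzymes of the mitochondrion and of the cytosol differed in size or direction. Aldh1l2, the mitochondrial formyltetrahydrofolate dehydrogenase, read 10.13, 10.10 and 10.17 against 4.95, 5.25 and 5.17 and rose by 5.01 ± 0.084, or 32.2-fold. Its cytosolic counterpart Aldh1l1 read 5.81, 5.68 and 5.51 against 9.88, 9.76 and 9.70 and fell by 4.11 ± 0.093. The mitochondrial Mthfd2 and Shmt2 rose by 4.34 ± 0.17 and 2.78 ± 0.10, and the cytosolic Shmt1 and Mthfd1 by 1.14 ± 0.089 and 0.60 ± 0.11, of which the call of Mthfd1 was lost with arrays centred on reference genes. The differences between these pairs were not tested.

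**Figure D4:**
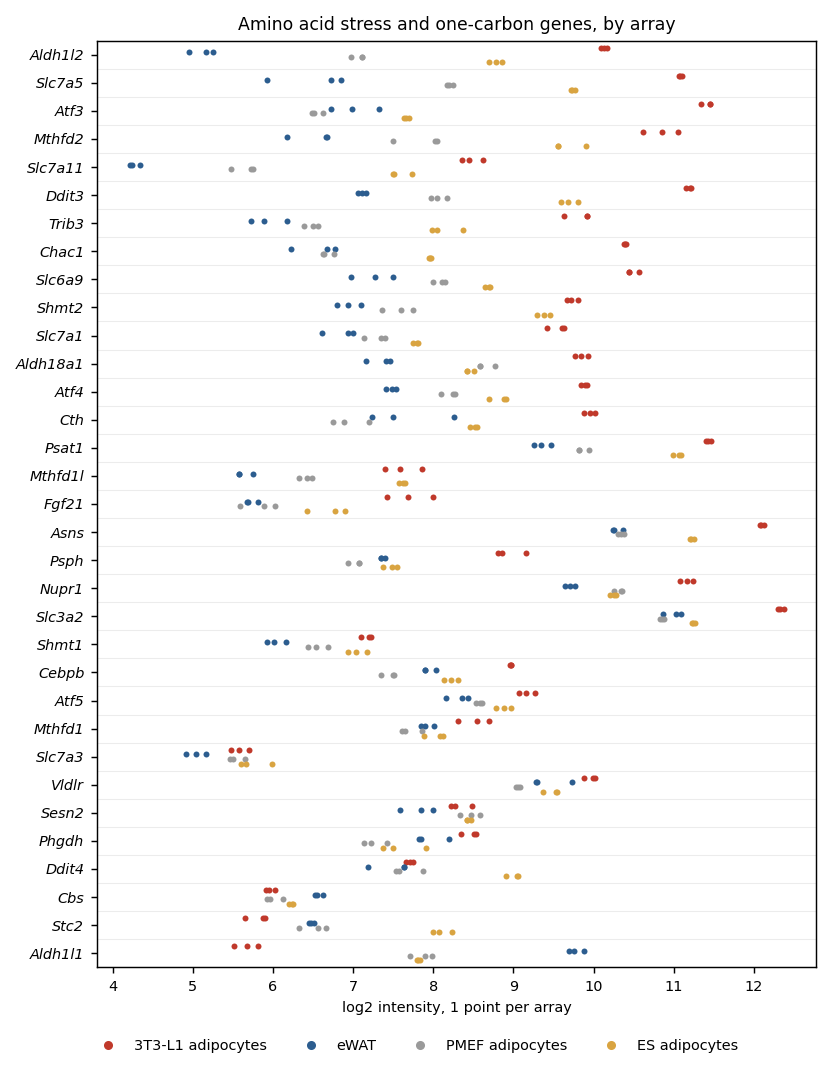
Log2 intensity of the 33 measured genes of the amino acid stress and one-carbon list in all 12 arrays, 1 point per array, ordered by the difference of 3T3-L1 adipocytes from eWAT. The 3T3-L1 points lie above those of eWAT by 5.01 for Aldh1l2 and below them by 4.11 for Aldh1l1, at the ends of the order.

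Chaperones of the endoplasmic reticulum, which fold secreted proteins, showed smaller differences. Of 22 measured 18 rose and 3 fell, with a median of 0.61, but 8 and 7 with arrays centred on reference genes. Hspa5, which encodes the chaperone BiP, read 12.69, 12.67 and 12.59 against 11.57, 11.68 and 11.74 and rose by 0.98 ± 0.069. Sdf2l1 and Creld2, both induced by misfolded protein, rose by 1.37 ± 0.20 and 1.25 ± 0.12. The letters CCAAT stood in 18 of the 19 promoters of the list found in RefSeq (94.7%), against 38.9% of all 15562.

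Antioxidant and xenobiotic enzymes split evenly on the deposited scale, with 19 of 43 higher and 19 lower, but 11 higher and 28 lower with arrays centred on reference genes. Among those that rose were some genes of the NRF2 programme, which answers oxidants by making glutathione and NADPH. No list of that programme was set out, so these genes do not show how it moved as a whole. Nqo1, a quinone reductase, read 8.64, 8.61 and 8.82 against 5.96, 5.68 and 5.67 and rose by 2.92 ± 0.12. Srxn1, which repairs peroxiredoxins, rose by 2.86 ± 0.095, and the glutathione synthesis genes Gss and Gclc by 1.89 ± 0.094 and 1.41 ± 0.08. Cyp2e1, which oxidises ethanol and small xenobiotics, fell by 5.41 ± 0.16, and the glutathione transferase gene Gstt1 by 3.42 ± 0.086.

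The largest falls held genes of fat cells beside genes of immune cells. Car3, the muscle and fat carbonic anhydrase, read 6.02, 5.76 and 5.90 in 3T3-L1 arrays and 13.13, 13.11 and 13.13 in eWAT and fell by 7.23 ± 0.071, or 150-fold. PMEF and ES adipocytes read 12.57 to 12.63 and 12.87 to 12.91, near the tissue, so the gene was low in 3T3-L1 cells alone among the 4 groups. Gpx3, the secreted glutathione peroxidase, read 5.05, 4.86 and 4.71 against 11.06, 11.97 and 11.81 and fell by 6.74 ± 0.17. Rbp4, the plasma retinol carrier, read 5.30, 4.78 and 5.0 against 11.98, 11.85 and 11.78. It fell by 6.85 ± 0.11, and lay at 8.67 to 8.78 in PMEF adipocytes, between culture and tissue, and at 12.29 to 12.37 in ES adipocytes, above the tissue.

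H2-Aa, a chain of the class II antigen-presenting molecule, read 4.02, 3.69 and 4.08 against 11.10, 11.37 and 11.49, dim in every culture array. Its partner chain gene H2-Ab1 fell by 6.48 ± 0.13, the galactosyltransferase gene B3galt2 by 6.42 ± 0.10, and Retnla, which encodes a secreted relative of resistin, by 6.32 ± 0.09. The proteoglycan core gene Srgn of blood cell granules and the lysozyme gene Lyz2 fell by 7.0 ± 0.11 and 6.36 ± 0.20. Srgn was not confined to tissue, at 7.12 to 7.34 in PMEF and 9.89 to 10.14 in ES adipocytes, against 4.85, 4.44 and 4.65 in 3T3-L1. Lyz2 has the near-identical neighbour Lyz1, and array signal could be shared between them. Serping1, the inhibitor of complement C1, fell by 6.49 ± 0.13, the butyrylcholinesterase gene Bche by 6.27 ± 0.10, and Scn7a, which encodes a sodium channel, by 7.0 ± 0.078. Bche lay at 8.85 to 9.06 and 9.75 to 9.85 in PMEF and ES adipocytes, far above its dim level of 3.57, 3.99 and 3.87 in 3T3-L1.

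**Figure D5:**
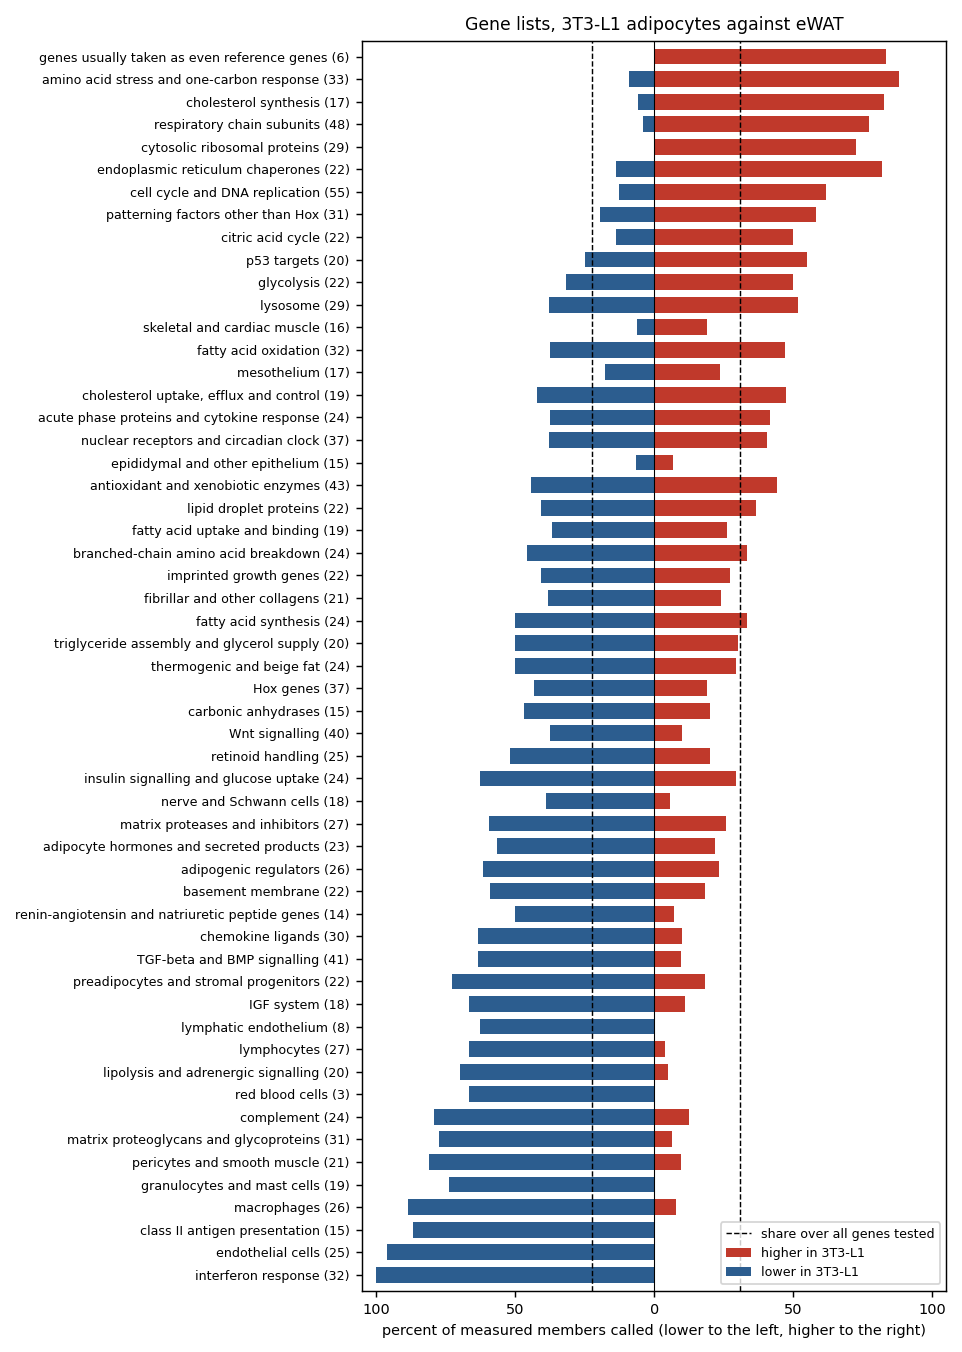
Percent of the measured members of each gene list called lower (bars to the left) or higher (right) in 3T3-L1 adipocytes than in eWAT. Lists (number measured in brackets) are ordered by percent higher minus percent lower. Dashed lines mark the shares over all genes, 22.5% lower and 30.8% higher. The amino acid list reaches 87.9% on the higher side, and the interferon list 100% on the lower side.

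Several genes at the core of fat storage differed little on the deposited scale, although Fabp4, Cd36, Lpl and Cidec were all called lower with arrays centred on reference genes, and Cd36 higher on array medians. Fabp4, the fat cell's abundant cytosolic fatty acid carrier, read 12.47, 12.47 and 12.41 against 12.59, 12.62 and 12.58 and was at -0.15 ± 0.062 (adjusted p = 0.0559, 95% interval -0.28 to -0.017). The fatty acid transporter Cd36 was at -0.031 ± 0.061 (interval -0.16 to 0.10), the lipoprotein lipase gene Lpl at 0.031 ± 0.065 (-0.11 to 0.17) and the droplet fusion gene Cidec at 0.062 ± 0.066 (-0.082 to 0.21). Of 22 measured lipid droplet genes, 8 rose and 9 fell, with 11 and 9 on array medians. Plin1, the droplet coat protein that guards lipase access, read 10.89, 10.94 and 10.79 against 12.18, 11.92 and 11.93 and fell by 1.14 ± 0.079. Hilpda, an inhibitor of the lipase ATGL, rose by 1.63 ± 0.11, and Pnpla3, a triglyceride hydrolase, fell by 5.10 ± 0.087.

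Genes of lipolysis and its hormonal control were mostly lower. Of 20 measured, 14 fell and 1 rose, with a median of -1.09. Ptger3, a prostaglandin E receptor that restrains lipolysis, fell by 4.52 ± 0.13, and Hcar1, the lactate receptor, by 3.74 ± 0.081. Mgll, which cleaves monoglycerides at the last step, read 7.65, 7.92 and 7.68 against 11.50, 11.21 and 11.27 and fell by 3.58 ± 0.093. Lipe, the hormone-sensitive lipase gene, fell by 1.12 ± 0.08, while the first lipase of the pathway, Pnpla2 (ATGL), was at -0.14 ± 0.063 (adjusted p = 0.0897).

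Synthesis of fatty acids and triglyceride was lower at several enzymes and higher at others. Of 24 measured fatty acid synthesis genes 12 fell and 8 rose. Acly, which makes cytosolic acetyl-CoA, fell by 2.49 ± 0.089, and the synthase gene Fasn fell by 1.51 ± 0.073. The carboxylase gene Acaca fell by 1.95 ± 0.067, and its mitochondrial relative Acacb fell by 2.35 ± 0.087. Scd3, a desaturase of a family of near-identical genes, rose by 4.32 ± 0.13. In the triglyceride list 10 of 20 fell and 6 rose. Pck1, the enzyme of glyceroneogenesis, read 7.55, 7.66 and 6.96 against 12.14, 12.11 and 12.29 and fell by 4.79 ± 0.17, while Gpd1 was at 0.07 ± 0.075. The insulin list held 15 falls and 7 rises among 24. The ubiquitous glucose transporter gene Slc2a1 rose by 2.39 ± 0.073, whereas Irs1, the insulin receptor substrate, fell by 1.58 ± 0.064 and Grb10, which restrains the insulin receptor, by 3.43 ± 0.073.

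Cholesterol synthesis ran the other way. Of 17 measured genes 14 rose and 1 fell, with a median of 0.71, and with arrays centred on reference genes the counts were 8 and 5. Msmo1, a sterol demethylation enzyme, read 11.02, 11.09 and 11.03 against 8.58, 8.33 and 8.30 and rose by 2.64 ± 0.082. Sqle, the squalene epoxidase gene, and Cyp51, the lanosterol demethylase gene, rose by 2.52 ± 0.11 and 2.19 ± 0.10. The 14 promoters of the list in RefSeq all held the letters CCAAT, against 38.9% of all 15562. The sterol regulatory element in full stood in 0 of the 14 (0.06% of all), and its looser core TCACNCCAC in 1 (7.14%, against 1.2% of all). That promoter, of the HMG-CoA synthase gene Hmgcs1, is shown 5′ to 3′ with the match in capitals, 137 bases before the start in RefSeq GRCm38.p6.
Hmgcs1 (chr13:119690174-119690262, plus strand): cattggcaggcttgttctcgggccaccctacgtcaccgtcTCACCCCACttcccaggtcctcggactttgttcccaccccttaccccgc

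Respiratory chain subunits were slightly higher on the deposited scale, where 37 of 48 rose and 2 fell (median 0.33), but 6 were higher and 24 lower with arrays centred on reference genes. Cox6a2, a cytochrome oxidase subunit of heart, muscle and brown fat, read 9.56, 9.68 and 9.56 against 6.02, 6.25 and 6.35 and rose by 3.39 ± 0.094. Ppargc1a, a coactivator of mitochondrial genes, rose by 2.51 ± 0.086. Ucp1, the uncoupling protein of brown fat, read 4.69, 4.62 and 4.63 against 10.05, 8.05 and 7.45, with tissue array 1 the highest, and fell by 3.87 ± 0.47. Cidea, a droplet protein of brown and beige fat, fell by 3.13 ± 0.12, and Abcd2, a peroxisomal fatty acid transporter, by 3.69 ± 0.08.

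Secreted products of fat were lower in 13 of 23 measured genes and higher in 5. Lep, which encodes leptin, read 4.65, 4.10 and 4.81 against 11.14, 10.23 and 9.96 and fell by 5.92 ± 0.26. Adipoq, which encodes adiponectin, read 11.44, 11.60 and 11.44 against 12.47, 12.42 and 12.44, bright in both, and fell by 0.95 ± 0.07. Agt, the precursor of angiotensin, rose by 3.43 ± 0.094. Of 26 adipogenic regulators, 16 fell and 6 rose. Cebpa, which drives the terminal fat programme, read 7.55, 7.70 and 7.45 against 10.56, 10.26 and 10.49 and fell by 2.87 ± 0.11, Mlxipl, the glucose sensor ChREBP, fell by 2.98 ± 0.081, and Pparg, the master regulator, fell by 0.64 ± 0.081. Cebpb, an early regulator, rose by 1.02 ± 0.074.

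The insulin-like growth factor system was lower in 12 of 18 genes and higher in 2. Igf1, the growth factor itself, read 6.62, 6.83 and 6.37 against 10.86, 11.32 and 11.27 and fell by 4.54 ± 0.13, its binding protein gene Igfbp5 fell by 5.17 ± 0.14, and the growth hormone receptor gene Ghr by 2.45 ± 0.065.

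Proteoglycans of the matrix were mostly lower, while collagens moved both ways. Of 31 proteoglycan and glycoprotein genes 24 fell and 2 rose (median -1.43), and 31 were lower than in the mean of PMEF and ES adipocytes. Efemp1, a fibulin, read 4.35, 4.15 and 4.48 against 10.23, 10.42 and 10.56 and fell by 6.08 ± 0.10. Of the small leucine-rich proteoglycans of collagen fibrils, Lum fell by 3.87 ± 0.081 and Dcn fell by 2.65 ± 0.079. Of 21 collagens 5 rose and 8 fell. Col14a1 and Col15a1 fell by 3.26 ± 0.12 and 3.23 ± 0.16, and the fibrillar Col3a1 by 1.85 ± 0.075, whereas Col12a1 rose by 1.01 ± 0.087. Timp3, an inhibitor of metalloproteinases bound to matrix, fell by 5.66 ± 0.088.

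Markers of vessels and of macrophages were far lower in the culture, while those of some other cell types differed little. Endothelial genes fell in 24 of 25 and rose in 0, with a mean list level of 5.36 to 5.39 over the 3T3-L1 arrays and 8.69 to 8.92 over eWAT. Emcn, the endothelial sialomucin endomucin, read 4.01, 3.78 and 3.71 against 10.31, 10.16 and 9.54 and fell by 6.17 ± 0.18. Macrophage genes fell in 23 of 26 and rose in 2, from levels of 8.05 to 8.96 in eWAT to 5.13 to 5.22. Mrc1, the mannose receptor, fell by 5.45 ± 0.21, and the lysosomal Cd68, which other cells also make, rose by 0.93 ± 0.19, a call lost with arrays centred on reference genes.

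All 5 fixed endothelial markers and all 5 macrophage markers fell, and so did all 3 mast cell and all 3 pericyte markers. Mast cell Cpa3 read 3.73, 3.58 and 3.72 against 7.72, 9.39 and 9.17, with tissue array 1 the lowest, and the pericyte gene Rgs5 fell by 5.27 ± 0.13. Of the T cell markers 2 of 3 fell, while both epithelial markers and the single Schwann cell marker measured did not pass. Of 3 mesothelial markers 2 were called higher, Msln at 0.56 ± 0.10 among them, but 0 of the 17 genes of the mesothelial list were higher with arrays centred on reference genes, and the list level was 5.44 to 5.51 in culture and 5.51 to 5.63 in eWAT. The part of these cell types in the fat and matrix differences was not tested.

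Progenitor genes were lower in 16 of 22 and higher in 4. Cd34, found on progenitors and vessels, read 4.86, 4.89 and 5.02 against 10.12, 10.50 and 10.42 and fell by 5.42 ± 0.095. Dlk1, which holds back fat cell differentiation, read 9.24, 9.19 and 9.17 against 6.42, 6.89 and 6.95 and rose by 2.45 ± 0.11.

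Interferon response genes fell in all 32 measured, with a median of -1.79, and 28 were also lower than in the mean of PMEF and ES adipocytes. Interferon signals turn on these antiviral genes through elements with paired GAAA repeats. GAAA, any 2 bases and GAAA again, sought on both strands, stood in 11 of 24 promoters of the list (45.8%), against 3.4% of 15562. Of these, 3 are shown from RefSeq GRCm38.p6 with the matches in capitals, as the reverse complement of the motif.
Ifit1 (chr19:34640745-34640853, plus strand): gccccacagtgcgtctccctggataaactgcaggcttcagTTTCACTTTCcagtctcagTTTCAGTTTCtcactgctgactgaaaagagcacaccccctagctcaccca
Ifit3 (chr19:34583333-34583456, plus strand): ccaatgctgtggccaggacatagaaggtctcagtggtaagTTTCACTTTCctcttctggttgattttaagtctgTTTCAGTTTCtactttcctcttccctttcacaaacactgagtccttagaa
Rsad2 (chr12:26456523-26456612, minus strand): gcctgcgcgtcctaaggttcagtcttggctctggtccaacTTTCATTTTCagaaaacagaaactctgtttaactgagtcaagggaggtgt
Ifit1, an antiviral RNA-binding protein gene, read 7.20, 6.58 and 5.96 in 3T3-L1 arrays and 7.30, 9.14 and 8.70 in eWAT, spread within both groups, and fell by 1.80 ± 0.41. Its relative Ifit3 read 8.40, 7.41 and 6.72 against 8.17, 10.03 and 9.75, so that the arrays overlapped, and fell by 1.81 ± 0.44. Rsad2, which encodes viperin, read 5.50, 4.96 and 4.94 against 7.56, 8.56 and 8.23 and fell by 2.98 ± 0.24. The Ifit genes are close relatives, and their probes could share signal.

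Complement and chemokine genes were lower too. Of 24 complement genes 19 fell and 3 rose (median -3.18), counting 3 C1q chains that are also in the macrophage list. C7, of the membrane attack complex, fell by 5.40 ± 0.27, and the C1s protease gene C1s1 by 4.44 ± 0.11. Of 30 chemokine ligands 19 fell and 3 rose. Ccl11, an attractant of eosinophils, fell by 4.59 ± 0.12 and Cxcl9, induced by interferon, by 4.98 ± 0.13, while the neutrophil attractant gene Cxcl1 rose by 1.09 ± 0.11.

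Positional genes differed as well. Of 37 Hox genes 16 fell and 7 rose, with 14 and 16 on arrays centred on their medians. Hoxc8 read 5.55, 5.38 and 5.27 against 10.60, 10.61 and 10.33 and fell by 5.11 ± 0.093. Of the same cluster, Hoxc6 and Hoxc10 fell by 3.40 ± 0.10 and 3.14 ± 0.11, and Hoxc13 rose by 1.69 ± 0.11. Eya1 and Foxc1, transcription regulators of embryonic patterning, rose by 3.54 ± 0.10 and 2.27 ± 0.13. Of 22 imprinted genes 9 fell and 6 rose, with 7 lower and 9 higher on array medians. Peg10 rose by 3.23 ± 0.087, and Nnat and Peg3 fell by 5.65 ± 0.11 and 3.52 ± 0.22.

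Signals of the TGF-beta family were mostly lower, while nuclear receptors and lysosomal genes moved both ways. Of 41 TGF-beta and BMP genes 26 fell and 4 rose. Acvr1c, the activin receptor ALK7 of fat cells, read 4.29, 4.21 and 4.59 against 10.26, 10.15 and 10.23 and fell by 5.85 ± 0.10. Of 37 nuclear receptor and clock genes 15 rose and 14 fell, with 6 higher and 23 lower on the reference genes. Esr1, the oestrogen receptor gene, fell by 3.78 ± 0.14 and the thyroid receptor gene Thrb fell by 2.92 ± 0.11, whereas Ciart and Bhlhe41, repressors of the circadian clock, rose by 3.11 ± 0.14 and 2.23 ± 0.22. In the renin-angiotensin and natriuretic peptide list 7 of 14 fell and 1 rose, and Ace, which makes angiotensin II, fell by 4.46 ± 0.16. Of 29 lysosomal genes 15 rose and 11 fell, but 6 were higher and 15 lower on the reference genes. The protease genes Ctsc and Ctsh fell by 6.01 ± 0.13 and 3.99 ± 0.13, while the cholesterol exporter gene Npc1 and Lipa, the lysosomal acid lipase gene, rose by 1.85 ± 0.074 and 1.33 ± 0.065.

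A smaller set separated 3T3-L1 cells from all other arrays. At least 2-fold and called in the same direction against eWAT, PMEF and ES adipocytes were 266 genes above (1.33%) and 525 below (2.63%). Besides Mdm2, Slc35e3 and Atf3, the highest by the smaller difference from PMEF and ES included Cwc22, a splicing factor gene, which read 11.29, 11.31 and 11.35 in 3T3-L1 arrays, 7.60, 7.65 and 7.75 in eWAT, 7.33 to 7.61 in PMEF and 7.81 to 7.87 in ES adipocytes. Steap1, of a family of metal reductases, rose by 4.33 ± 0.13 against tissue, and Acox2, a peroxisomal oxidase of branched acids, by 3.80 ± 0.14. Xlr, of a multicopy X-linked family whose members could share signal, rose by 2.54 ± 0.25.

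On the low side, beside Car3, Gpx3, Serping1 and Efemp1, stood Gnai1, an inhibitory G protein subunit gene, which read 5.03, 4.97 and 4.72 in 3T3-L1 arrays, 10.80, 10.44 and 10.57 in eWAT, 10.19 to 10.33 in PMEF and 10.66 to 10.71 in ES adipocytes. The 3T3-L1 values lay far below those of every other group. Sfrp1, a secreted Wnt inhibitor, fell by 2.59 ± 0.17 against tissue and was at -7.49 and -6.24 against PMEF and ES adipocytes. Gpc3, a glypican, fell by 3.09 ± 0.13 against tissue and was at -5.25 and -5.53 against the cultures.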

How the data were processed

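Total RNA, extracted with TRIzol, was labelled from 300 ng with the Ambion WT Expression kit for Affymetrix arrays, per the labels' protocols. The authors deposited log2 intensities of 35556 probe sets in 12 arrays. How they were normalized is not given in the sources used here, and the values were used as deposited. The 21789 probe sets with exactly 1 gene symbol gave 19938 genes, the brightest probe set standing for a gene. No dim genes were filtered. Precision is set by 3 arrays a group.

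Group means of all 4 groups were fitted with limma 3.58.1 in R 4.3.3 (8 residual and 4.88 prior degrees of freedom). The contrasts were 3T3-L1 minus eWAT, minus PMEF, minus ES and minus the mean of the last 2. P-values measure the spread between arrays within groups, pooled over all 4 groups and moderated across genes. Tissue arrays could spread more than culture arrays, as for Elovl3, with a standard deviation of 0.83 in eWAT and 0.098 in 3T3-L1. The comparison with PMEF and ES adipocytes shares the 3T3-L1 arrays with the one against eWAT. The text names the 12 largest rises and falls, genes of the 10 highest and 10 lowest in 3T3-L1 against all groups, members of 55 gene lists and a panel of 20 genes. The largest rises and falls were taken among genes called, at least 2-fold and without overlap of the 3T3-L1 and eWAT arrays. Members and lists were chosen with earlier results of these data known. The fit was tested on simulated data with few genes changed and, for each gene, the same spread in every group. Such data cannot show the effect of the scale or of unequal spread between groups. Alternatives were other scalings, filters, probe set choices, fits, a replicate block and leaving out each array. Same-numbered arrays of 3T3-L1 and eWAT did not deviate together (correlations of -0.039, -0.018 and -0.0096), so the values gave no sign of pairing by number. PMEF and ES arrays were not checked in this way.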

Additional observations from a re-analysis of the deposited data

Results flagged for a closer look

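Of 20 fat cell genes set out for a test between the culture models, 19 were measured and 13 were called between 3T3-L1 adipocytes and the mean of PMEF and ES adipocytes, by the limma contrast in which the tissue level cancels, where 48.6% of all genes were called. The 12 of them that were also called against eWAT are given here as the difference from that mean, and the other gene is Cd36, at 0.18. The hormone genes Lep, Adipoq and Retn were at -1.65, -0.61 and -0.68, and the retinol carrier gene Rbp4 at -5.51. The regulator Cebpa was at -2.57. The droplet coat gene Plin1 and the lipase gene Lipe were at -0.61 and -0.55, and the synthesis gene Fasn at -0.65. Pck1 was at -2.02, made up of -0.27 against PMEF and -3.76 against ES adipocytes. Car3 was at -6.85 and Ucp1 at -2.51. Slc2a4, the insulin-responsive glucose transporter gene, was the single gene of the 12 above that mean, at 0.51, and lay at 1.13 against PMEF but -0.10 against ES adipocytes. The other 11 had values below both models, of which Pck1 was not called against PMEF (adjusted p = 0.202 by limma). Groups of 3 arrays are too small for a test of single outlying arrays.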

How the results depend on the processing

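Values of 151 named genes were also taken under alternatives for normalization, scale, filter, probe sets, fit and arrays left out. Of these values, 2241 kept their side of the threshold, and their direction where called. In 4 a call was lost, in 10 a call was gained in the same direction, and in 5 a call was gained with the sign turned. The scale of the arrays moved the most. Arrays centred on their medians gave 10477 genes higher than in eWAT and 3119 lower, with 1947 at least 2-fold higher and 1360 at least 2-fold lower, and against the mean of PMEF and ES adipocytes 10247 higher, 2806 lower and 1142 at least 2-fold higher. Arrays centred on reference genes gave 16827 genes called against eWAT, 2206 higher, 14621 lower, 384 at least 2-fold higher and 3058 at least 2-fold lower, and against the mean of PMEF and ES adipocytes 3473 higher, 8405 lower and 433 at least 2-fold higher. All 35556 probe sets gave 16719 calls, 9946 higher and 6773 lower, 2188 and 2574 of them at least 2-fold, with more features tested. A test against a 2-fold difference (limma treat) gave 638 higher than in eWAT and 1190 lower.

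Among lists with a clear lead of one direction, that of higher members turned on the reference genes in those of glycolysis (4 higher), citric acid cycle (0 higher), respiratory chain (6 higher), muscle (1 higher), patterning factors (9 higher), cell cycle (15 higher), p53 targets (6 higher) and ribosomal proteins (4 higher). That of lower members turned on array medians in the thermogenic (8 lower), Hox (14 lower) and carbonic anhydrase (4 lower) lists, and lists more evenly split turned in several settings. Uncalled genes became called with the sign turned on the reference genes, Cidec, 3T3-L1 minus eWAT at -0.47, Cpsf6, 3T3-L1 minus eWAT at -0.38, Gpd1, 3T3-L1 minus eWAT at -0.46 and Lpl, 3T3-L1 minus eWAT at -0.50, and on array medians Cd36, 3T3-L1 minus eWAT at 0.18. The replicate block left 10519 genes called, 6074 higher and 4445 lower, and the values gave no sign that same-numbered 3T3-L1 and eWAT arrays are pairs. Leaving out 1 array gave 9922 to 10518 genes called against eWAT and 8717 to 9887 against the mean of PMEF and ES adipocytes. No detection calls were used, so levels near background limit the size of the largest differences.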
